A study of Mus musculus with 10 samples.

Results

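The genes described here encode 10 enzymes and subunits of mitochondrial fatty acid beta-oxidation, Cpt1a, Cpt2, Acadm, Acadl, Acadvl, Hadha, Hadhb, Acaa2, Etfa and Etfb. They were chosen by name from the 24608 gene symbols of the count table, and 9 of the 10 had enough counts to be tested among 7753 tested genes. RNA of muscle stem cells (MuSCs) was read in 5 control and 5 Trpm7 cKO libraries, each from 3000 sorted cells of skeletal muscle 3 days after injury by cardiotoxin (CTX). Control mice were Trpm7+/+ and Trpm7 cKO mice were Trpm7 flox/flox, and both genotypes carried 1 Pax7 CreERT2 allele (Pax7 CreERT2/+) and the Rosa26 YFP reporter. All were adult, age-matched C57BL6 mice of both sexes that had received tamoxifen to activate the Cre. Cre was expressed from the Pax7 locus, and recombination of Trpm7, which encodes a Mg2+-permeable channel, is therefore limited to cells that express Pax7 or descend from such cells.

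Beta-oxidation shortens long-chain acyl-CoA in the mitochondrial matrix and yields acetyl-CoA together with reduced electron carriers. CPT1 makes the carnitine ester of the acyl group for import into mitochondria, and CPT2 returns the group to CoA. Acyl-CoA dehydrogenases of different chain-length preference make the first oxidation step, and the trifunctional protein (HADHA and HADHB) and a thiolase complete the cycle. Electrons of the dehydrogenases pass to the electron transfer flavoprotein, a heterodimer of ETFA and ETFB. Quiescent MuSCs are known to rely on fatty acid oxidation more than activated MuSCs, which shift toward glycolysis.

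The CEL-Seq2 protocol reads the 3′ end of each transcript once per molecule, through a unique molecular identifier, so that counts of different genes were compared without division by transcript length. Control libraries held 914353 to 1097707 counts and Trpm7 cKO libraries 205980 to 581117, and did not overlap, and depth cannot be told apart from genotype in these libraries. Levels are given as normalized CPM, counts relative to a library's total over the tested genes, scaled by TMM factors. Of 17 tested genes of MuSC identity, 10 were higher and 3 lower in Trpm7 cKO libraries, with Pax7 at 206 ± 33.7 normalized CPM in control and 474 ± 122 in Trpm7 cKO (SD, n = 5 each). Of 10 tested genes of myogenic differentiation, 8 were lower and 2 higher, and Myod1 fell by 2.01 on the log2 scale. All 21 tested leukocyte markers were higher in Trpm7 cKO, and the 30 genes of that list summed to 409 to 682 normalized CPM in control and 1603 to 7032 in Trpm7 cKO libraries. Cd3e, Cd79a and Nkg7, which mark lymphocytes, had no count in control libraries and 1, 3 and 3 counts in all Trpm7 cKO libraries together. Markers of fibro-adipogenic progenitors (6 of 7 tested) and of endothelium (3 of 3) were also higher, at 2784 to 5305 against 1449 to 2662 and at 134 to 756 against 6.43 to 78.7 summed normalized CPM. Trpm7 itself was counted at 76.9 ± 9.97 normalized CPM in control and 71.4 ± 22 in Trpm7 cKO (SD, n = 5 each). Which part of the gene is removed is not given in the sources used here, and 3′-end counts cannot check a deletion that leaves the 3′ end in place. The study checked the deletion by Trpm7 mRNA in freshly isolated MuSCs, by PCR and by TRPM7 staining of MuSCs on myofibers. In the labels, replicates 4 and 5 of Trpm7 cKO carry a common number whose meaning is not given in the sources used here.

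Hadha and Hadhb encode the subunits of one complex and Etfa and Etfb those of another, and the DNA before their starts is shown because the partners of each pair differed in their fold changes. Hadha and Hadhb lie head to head on chromosome 5 of GRCm38, Hadha on the minus strand at 30118304 to 30155162 and Hadhb on the plus strand at 30155248 to 30184593, with 85 bases between the annotated genes. Etfa (chromosome 9, 55454508 to 55512243, minus strand) and Etfb (chromosome 7, 43444083 to 43457800, plus strand) lie apart. The sequences are taken from the RefSeq promoter table of GRCm38.p6 and are written 5′ to 3′ on the strand of the gene named. They cover all bases between Hadha and Hadhb (chr5:30155163-30155247) and the 250 bases before the start of Etfa (chr9:55512244-55512493) and of Etfb (chr7:43443822-43444071), with capitals on GC boxes (GGGCGG) and CCAAT boxes read on either strand.
Hadhb: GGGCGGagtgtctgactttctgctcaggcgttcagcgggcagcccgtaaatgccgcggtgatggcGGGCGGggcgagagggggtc
Etfa: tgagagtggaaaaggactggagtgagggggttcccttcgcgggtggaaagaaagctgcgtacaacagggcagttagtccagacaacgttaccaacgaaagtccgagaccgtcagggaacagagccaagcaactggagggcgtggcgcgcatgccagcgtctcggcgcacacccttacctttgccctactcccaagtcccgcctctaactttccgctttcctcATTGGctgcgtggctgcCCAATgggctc
Etfb: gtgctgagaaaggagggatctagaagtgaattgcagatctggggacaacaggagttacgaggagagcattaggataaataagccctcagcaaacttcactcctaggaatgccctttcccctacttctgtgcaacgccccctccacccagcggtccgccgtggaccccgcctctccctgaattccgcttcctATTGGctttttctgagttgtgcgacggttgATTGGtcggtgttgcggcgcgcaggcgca
The stretch shared by Hadha and Hadhb was 69.4% G and C and held 2 GC boxes, while the stretches of Etfa and Etfb were 58.8% and 55.6% G and C and held 2 CCAAT boxes each.

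Of the 9 tested beta-oxidation genes, 3 were lower in Trpm7 cKO MuSCs (Hadhb, Acadl and Etfa), 1 was higher (Etfb), and 5 were not called (Cpt1a, Cpt2, Acadm, Hadha and Acaa2) at an adjusted p-value below 0.05. The share called was 44.4%, beside 48.7% of all tested genes, of which 24.1% were lower and 24.6% higher. None of the 9 was past an absolute log2 fold change of 1.5 as well in edgeR, at the adjusted or the unadjusted p-value, or in DESeq2 or limma-voom, beside 12.0% of all tested genes. In edgeR fits with other scalings, 1 was past both when scaled on the MuSC identity genes (Hadhb, -1.62) and 5 per 3000 sorted cells (Hadhb, Acadl, Cpt2, Etfa and Hadha). The median log2 fold change of all tested genes in these 2 fits was -0.357 and -1.15, and 34% and 66.6% were lower at the adjusted p-value alone. The share of all tested genes past both thresholds was not computed for these fits, so these member counts have no background. Counts per 3000 sorted cells are the deposited counts without correction for library depth, which did not overlap between genotypes. Without Trpm7 cKO replicates 3 and 5, the shallowest libraries, 2 of the 9 were lower (Hadhb and Acadl) and 0 higher, beside 19.4% and 21.5% of all tested genes. Etfa was then at -0.29 (edgeR, adjusted p = 0.186) and Etfb at 0.63 (edgeR, adjusted p = 0.0645). At an unadjusted p-value below 0.05, 4 were lower and 1 higher, and the share of all tested genes at that threshold was not computed. Control and Trpm7 cKO libraries did not overlap for 3 of the 9 (Hadhb, Acadl and Cpt2), beside 34.5% of all tested genes. Log2 fold changes lay below 0 for 7 of the 9 and ranged from -1.24 to 0.89, with a median of -0.38, beside a median of -0.006 over all tested genes. The shares called thus lay near the background, and the members differed among themselves in direction. Summed over the members, expression was 918 ± 57.0 normalized CPM in control and 648 ± 37.3 in Trpm7 cKO (SD, n = 5 each), given as a description. In bulk RNA, fewer cells of a type and less RNA per cell cannot be told apart.

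**Figure D1:**
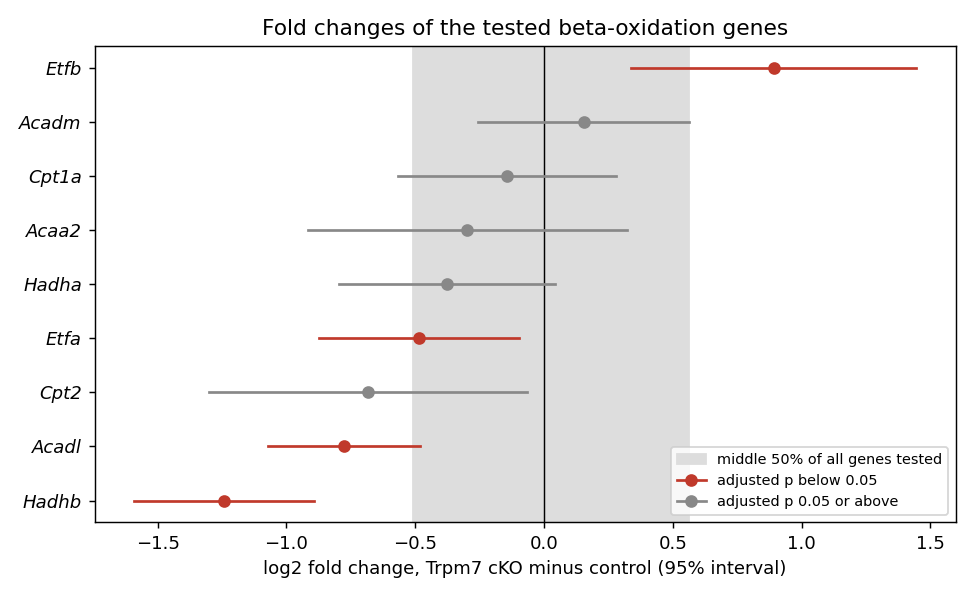
Log2 fold change of each tested beta-oxidation gene, Trpm7 cKO minus control, with its 95% interval (horizontal axis), in order of size; the grey band holds the middle 50% of all tested genes. Hadhb (-1.24), Acadl (-0.78), Cpt2 (-0.68) and Etfb (0.89) lie outside the band. When counts were set per 3000 sorted cells, without correction for library depth, Etfb turned to -0.32 and Acadm (0.15) to -1.02.

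The levels were ordered in 3 tiers in control MuSCs. Hadhb (243 normalized CPM), Etfa (195) and Acadl (193) were highest, and every control library of these genes lay above every control library of Hadha (74.5), Acadm (64.9) and Cpt1a (62.1). Etfb (36.4), Acaa2 (26.6) and Cpt2 (23.1) formed the lowest tier, again with no control library of Etfb reaching Cpt1a, while neighbours within a tier overlapped. In Trpm7 cKO MuSCs the order was Etfa (133), Acadl (111), Hadhb (99.5), Acadm (74.8), Etfb (73.3), Hadha (60.4), Cpt1a (56.8), Acaa2 (25.3) and Cpt2 (13.6), and every neighbouring pair overlapped. Hadhb was first in control and in the third place in Trpm7 cKO, and Etfb moved from the seventh to the fifth place.

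**Figure D2:**
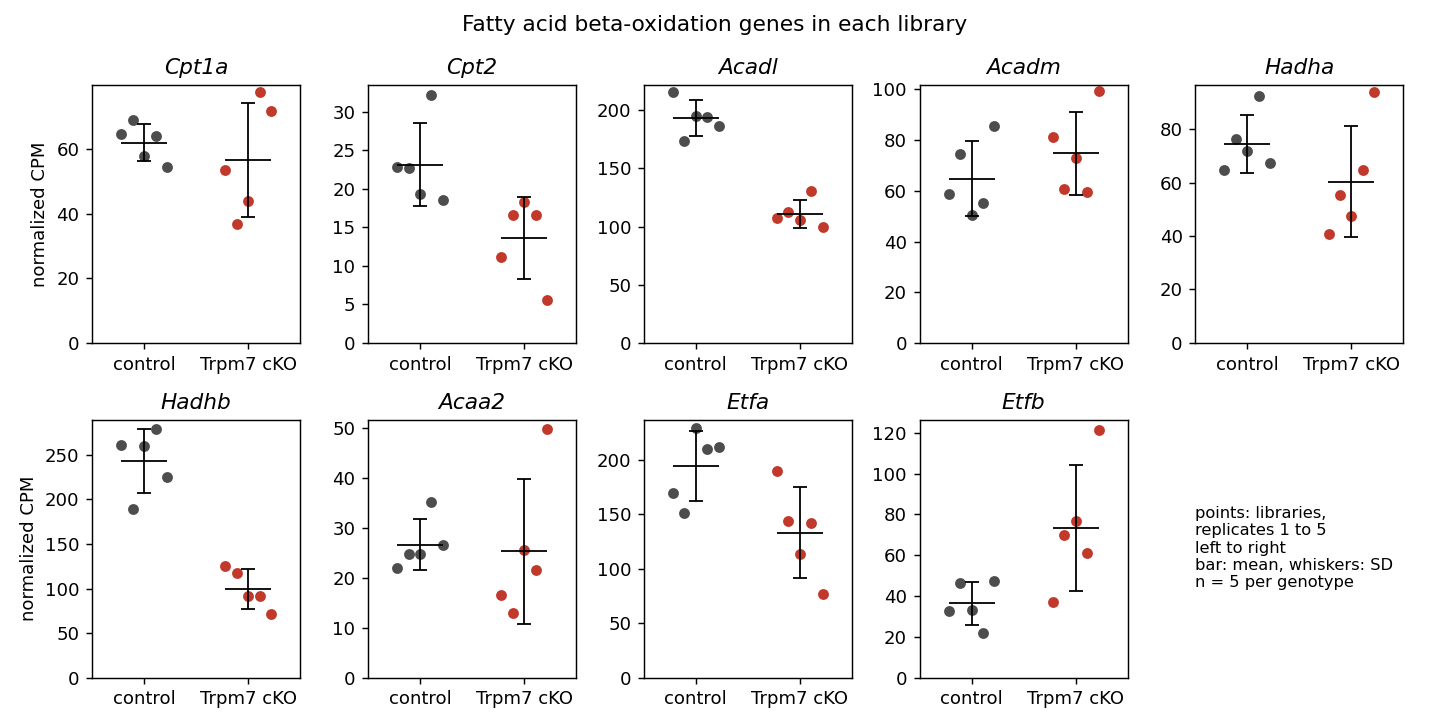
Normalized CPM (vertical axis, from 0) of the 9 tested beta-oxidation genes in each control and Trpm7 cKO library, replicates 1 to 5 from left to right; bars are means and whiskers SD (n = 5). Hadhb, Acadl and Cpt2 do not overlap between genotypes, and Trpm7 cKO replicate 5, the shallowest library, is the highest for Acadm (99.3), Hadha (93.8), Acaa2 (49.7) and Etfb (121) and the lowest for Cpt2 (5.52), Acadl (99.3), Hadhb (71.7) and Etfa (77.3), 8 of the 9 genes.

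At the entry of the pathway, Cpt1a encodes the liver-type carnitine palmitoyltransferase of the outer membrane, the malonyl-CoA-sensitive step of long-chain oxidation. Its normalized CPM was 64.6, 69.2, 57.9, 64.2 and 54.4 in control libraries 1 to 5 and 53.6, 36.8, 43.8, 77.9 and 71.7 in Trpm7 cKO libraries 1 to 5. The Trpm7 cKO libraries lay on both sides of the controls, and the fold change of -0.14 ± 0.20 (log2, SE) was not called (edgeR, adjusted p = 0.587), with a 95% interval from -0.57 to 0.28. Cpt2 encodes the inner-membrane enzyme that returns the acyl group to CoA. It had 23, 22, 18, 32 and 16 counts in control and 6, 9, 5, 10 and 1 counts in Trpm7 cKO libraries, or 18.5 to 32.1 against 5.52 to 18.3 normalized CPM. Every Trpm7 cKO library lay below every control library, the nearest being at 18.3 and 18.5, and the difference of -0.68 ± 0.30 was not called (edgeR, adjusted p = 0.0601). Cpt2 was called in 3 of 20 alternative fits, without a filter on low counts (-0.88), scaled on the MuSC identity genes (-1.04) and per 3000 sorted cells (-1.82), and its adjusted p ranged from 9.21e-05 to 1 over all of them.

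Of the acyl-CoA dehydrogenases, Acadl, which acts on long chains in mice, was lower in Trpm7 cKO and Acadm, the medium-chain enzyme, was not called. Acadl (chromosome 1, 66830839 to 66863277, minus strand) was at 216, 173, 195, 194 and 186 normalized CPM in control and 107, 112, 106, 131 and 99.3 in Trpm7 cKO libraries. It varied least of the members, with a coefficient of variation of 7.99% in control and 10.8% in Trpm7 cKO, and the groups were well apart. The difference was -0.78 ± 0.14, or 1.71 times lower in Trpm7 cKO (edgeR, adjusted p = 0.000139). Acadm (chromosome 3, 153922357 to 153944632, minus strand) was at 58.7, 74.3, 50.4, 55.2 and 85.7 in control and 81.3, 60.7, 73.1, 59.6 and 99.3 in Trpm7 cKO libraries, which overlapped. Its difference was 0.15 ± 0.20 (edgeR, adjusted p = 0.546), with a 95% interval from -0.26 to 0.56, and turned negative when counts were set per 3000 sorted cells (-1.02), when libraries were scaled on the MuSC identity genes (-0.20), without a filter (-0.05) and with the leukocyte score as a covariate (-0.51).

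Acadvl, the very-long-chain enzyme bound to the inner membrane, had 1 count in all 10 libraries, in control replicate 5, and was not tested. Its gene (chromosome 11, 70010183 to 70015411, minus strand) ends within Dvl2, which is read from the opposite strand and covers 94.4% of the last 500 transcript bases of Acadvl. Dvl2 had 12 to 20 counts in control and 2 to 16 in Trpm7 cKO libraries. The strand setting of the counting is not given in the sources used here, and its part in the single Acadvl count was not tested. The count of Acadvl therefore gives no level for this step.

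The trifunctional protein carries out the hydration, the second oxidation and, for long chains, the thiolytic cleavage. Hadhb, its thiolase subunit, showed the largest fall among the 9 members. Its normalized CPM was 262, 189, 259.5, 279 and 225 in control and 126, 118, 91.3, 91.1 and 71.7 in Trpm7 cKO libraries, with every Trpm7 cKO library below every control library. The difference was -1.24 ± 0.17, or 2.37 times lower in Trpm7 cKO (edgeR, adjusted p = 5.53e-06). Hadha, the hydratase and dehydrogenase subunit, was at 64.6, 76.4, 71.9, 92.4 and 67.1 in control and 40.7, 55.2, 47.5, 64.6 and 93.8 in Trpm7 cKO libraries. Its Trpm7 cKO replicate 5 was above all controls while replicates 1 to 4 were below all of them, replicate 4 by a margin under 0.1 normalized CPM, and the difference of -0.38 ± 0.20 was not called (edgeR, adjusted p = 0.128). Hadha was called in 4 of 22 alternative fits, without Trpm7 cKO replicate 5, the shallowest library (-0.50, adjusted p = 0.0376), without a filter (-0.58), scaled on MuSC identity genes (-0.68) and per 3000 sorted cells (-1.55), with adjusted p from 0.000234 to 0.962 over all 22. Of the last 500 transcript bases of Hadha, 15% overlap Garem2 on the opposite strand, which had 1 count in all libraries.

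Acaa2, the mitochondrial 3-ketoacyl-CoA thiolase of shorter chains, was counted 22, 24, 23, 35 and 23 times in control and 9, 7, 7, 13 and 9 times in Trpm7 cKO libraries. On the normalized scale the groups overlapped, at 21.9 to 35.1 CPM in control and 12.9 to 49.7 in Trpm7 cKO. The difference was -0.30 ± 0.30 (edgeR, adjusted p = 0.427), with a 95% interval from -0.92 to 0.32. Its coefficient of variation in Trpm7 cKO libraries, 57.3%, was the highest of the tested members, with the highest value in replicate 5.

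The subunits of the electron transfer flavoprotein changed in opposite directions. Etfa was at 170.0, 152, 229.5, 209.8 and 212 normalized CPM in control and 190.3, 144, 113, 142 and 77.3 in Trpm7 cKO libraries. Replicate 1 of Trpm7 cKO lay among the controls and the other 4 lay below them. The difference was -0.49 ± 0.19, or 1.40 times lower in Trpm7 cKO (edgeR, adjusted p = 0.036), and was called in 11 of 22 alternative fits (adjusted p from 0.000177 to 0.973). The call was lost, among others, without control replicate 3, 4 or 5 and without Trpm7 cKO replicate 2, 3 or 5 (-0.50 to -0.38), with total counts alone (-0.38), and with the leukocyte covariate the value was 0.06. Etfb was at 32.8, 46.5, 33.2, 22.1 and 47.5 in control and 37.0, 69.9, 76.7, 61.3 and 121 in Trpm7 cKO libraries. Replicate 1 of Trpm7 cKO again lay among the controls and the other 4 lay above them. The difference was 0.89 ± 0.27, or 1.86 times higher in Trpm7 cKO (edgeR, adjusted p = 0.00864), although per 3000 sorted cells it was -0.32 (adjusted p = 0.449, with a range from 0.00158 to 0.957 over 21 alternatives). Of the last 500 transcript bases of Etfb, 53.8% lie also in Gm45233, annotated on the same strand, and 22% of those of Etfa are shared with pseudogenes in stretches of 31 bases, so that both counts are uncertain to that extent. Gm6270, 1 of the 2 pseudogenes, had 1 count in all libraries, and no entry of the table carries the symbol Gm45233.

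Ratios of partner genes within a library do not depend on how libraries are scaled and show only whether the partners changed unequally. The log2 ratio of Hadha to Hadhb was -2.01, -1.30, -1.85, -1.59 and -1.73 in control and -1.61, -1.08, -0.92, -0.49 and 0.37 in Trpm7 cKO libraries. Expressed as a share, Hadhb took 76.4% ± 3.42 of the counts of the pair in control and 62.3% ± 12.2 in Trpm7 cKO (SD, n = 5 each). The ratio was higher by 0.95 in Trpm7 cKO (two-sided exact permutation test of the genotype labels, p = 0.0238, adjusted over 3 pairs 0.0357), with overlapping groups. The log2 ratio of Etfa to Etfb was 2.36, 1.70, 2.77, 3.22 and 2.14 in control and 2.34, 1.03, 0.55, 1.21 and -0.63 in Trpm7 cKO libraries, and Etfb took 16% ± 5.33 and 36.1% ± 16.5 of the pair. That ratio was lower by 1.54 (-1.54 as cKO minus control; exact permutation test, two-sided, p = 0.0238, adjusted 0.0357). In both pairs Trpm7 cKO replicate 1 lay within the controls and replicate 5 lay farthest from them. The ratio of Cpt1a to Cpt2 differed by 0.54 (exact permutation test, two-sided, p = 0.214, adjusted 0.214), with Cpt2 at 26.9% ± 3.63 of the pair in control and 20.5% ± 9.86 in Trpm7 cKO. Both called ratios stayed past the threshold without control replicate 2 or without Trpm7 cKO replicate 1, missed it in the other 8 comparisons that left out 1 library (adjusted p = 0.0714 in each, exact permutation) and missed it when libraries were thinned to 205980 counts (adjusted p = 0.0952 and 0.0833), with differences of 1.04 and -1.44.

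Pairs with Acadvl could not be computed, and Acadm with Acadl was taken instead after the counts were seen, without a test. Acadm took 21.4%, 30%, 20.5%, 22.2% and 31.5% of the counts of that pair in control and 43.1%, 35.1%, 40.8%, 31.3% and 50% in Trpm7 cKO libraries. The highest control library, 31.5%, was above the lowest Trpm7 cKO library, 31.3%, and the other libraries of the genotypes were apart.

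**Figure D3:**
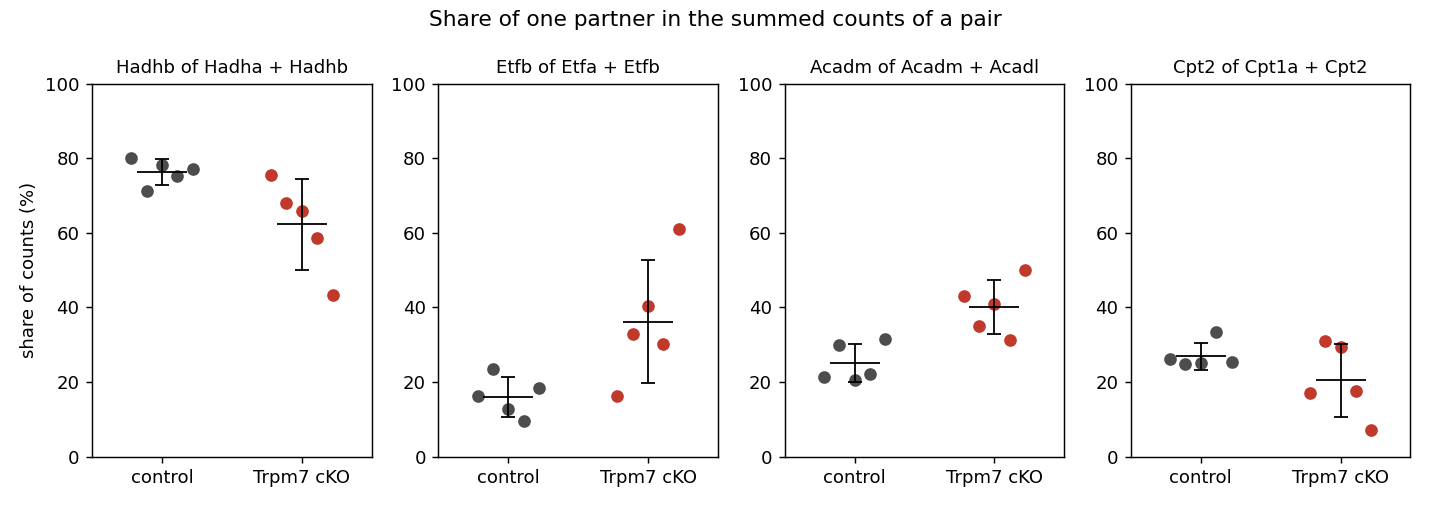
Share of one partner in the summed counts of each pair (vertical axis, percent, from 0 to 100) in every control and Trpm7 cKO library, replicates 1 to 5 from left to right, with mean and SD (n = 5). The share of Hadhb is lower on average in Trpm7 cKO (62.3% against 76.4%) and those of Etfb (36.1% against 16%) and Acadm (40.1% against 25.1%) are higher, with every pair overlapping between genotypes.

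Scaling shifts all genes by about the same amount and was read against the median of all genes. The median log2 fold change of all tested genes was 0.096 with total counts alone, -0.357 when scaled on the MuSC identity genes and -1.15 per 3000 sorted cells, and in each of these 7 of 9 members lay below that median, with Acadm and Etfb above it, as such a shift leaves them. Per 3000 sorted cells, 8 members were called lower by edgeR and none higher, beside 66.6% and 4.9% of all tested genes. At an unadjusted p-value below 0.05 the member counts were the same. Summed leukocyte marker RNA did not overlap between genotypes (409 to 682 normalized CPM in control, 1603 to 7032 in Trpm7 cKO). A fit with the leukocyte score as a covariate therefore cannot tell that RNA apart from genotype. With this covariate, no member was called by edgeR. At an unadjusted p-value below 0.05, 1 member was lower, and the share of all tested genes at that threshold was not computed. The share of all genes called fell from 48.7% to 5.78%. Hadhb was then at -0.30 ± 0.47 and Acadl at -0.79 ± 0.44, against -1.24 and -0.78 without the covariate. Cpt1a, Acaa2 and Hadha moved down, to -1.47 ± 0.56, -1.38 ± 0.91 and -0.73 ± 0.60, from -0.14, -0.30 and -0.38. In Trpm7 cKO replicate 2, the Trpm7 cKO library with the least leukocyte marker RNA (1603 summed normalized CPM, above the 682 of the highest control library), Hadhb was at 118 and Acadl at 112 normalized CPM. Control libraries were at least at 189 and 173. Trpm7 cKO replicates 1 and 3, with 4004 and 4103 of leukocyte marker RNA, had Hadhb at 126 and 91.3 and Acadl at 107 and 106. Replicates 4 and 5, with the most leukocyte marker RNA (7032 and 6600), had Hadhb at 91.1 and 71.7 and Acadl at 131 and 99.3, the highest and the lowest Acadl values among the Trpm7 cKO libraries. The part of other cell types in the Hadhb, Acadl, Etfa and Etfb results was not tested beyond that covariate. In the ratio results it was not tested.

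**Figure D4:**
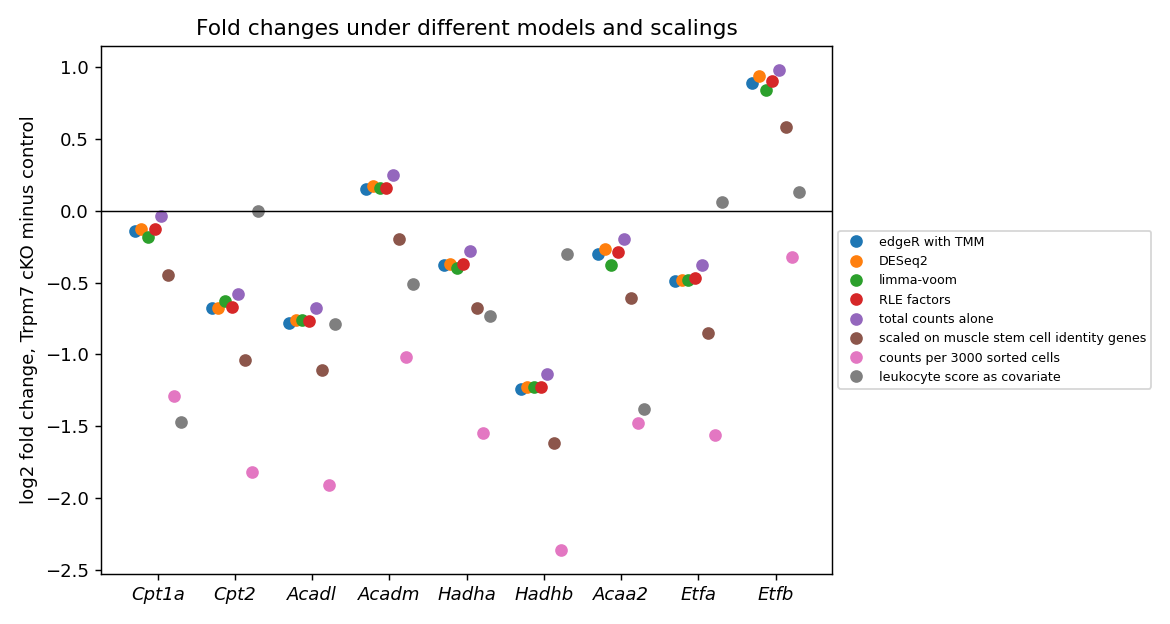
Log2 fold change, Trpm7 cKO minus control (vertical axis), of each tested beta-oxidation gene under 8 models or scalings (colours). Hadhb and Acadl are below 0 in all 8; Etfb is above 0 except per 3000 sorted cells (-0.32), Acadm is below 0 when scaled on MuSC identity genes, per 3000 sorted cells and with the leukocyte covariate, and Etfa is above 0 with the leukocyte covariate (0.06).

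Within a genotype the members did not vary as a block. Over 36 pairs of members, correlations of the deviations from the genotype means over the 10 libraries had a median of -0.25, with 17 pairs above 0, from -0.85 (Hadhb with Etfb) to 0.83 (Hadhb with Etfa). These values share the libraries and their depth and are a description. Genes outside all lists whose log2 CPM over the 10 libraries followed the mean of the members most closely were Lars (r = 0.97), Lrrc17, Suds3, Parvb and Ap2b1 (r = 0.95 for each of these 4, with genotype included). After removal of the genotype means the closest were Scamp2, Zadh2, Shisa5, Tmem165 and Lars (r from 0.91 to 0.95). Lars stood in both lists, which use the same 10 libraries. These genes are the highest of all tested genes outside the lists, and how high r would be by chance was not tested.

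Genes of other steps of fatty acid handling were counted in the same way. In the 9 lists beside the members, 74 genes were tested, 13 were lower and 24 higher in Trpm7 cKO (50% called, beside 48.7% of all tested genes), with a median log2 fold change of 0.08. Of 9 further tested genes of mitochondrial oxidation, 1 fell and 1 rose. Hadh, the short-chain 3-hydroxyacyl-CoA dehydrogenase, went from 116 ± 9.39 to 63.9 ± 11.8 normalized CPM (SD, n = 5 each), a fall of 0.83 on the log2 scale (edgeR, adjusted p = 0.000271), and its libraries did not overlap. Echs1, the short-chain enoyl-CoA hydratase, went from 22.8 ± 5.42 to 42.2 ± 12.5 (log2 fold change 0.96, adjusted p = 0.00285), while Acat1, Hsd17b10, Eci1 and Eci2 were at -0.44, -0.35, -0.06 and 0.40 without a call. Etfdh, which passes electrons from the flavoprotein to ubiquinone, was at 0.25 (adjusted p = 0.548), and of the dehydrogenases of amino acid breakdown that also feed it, Acadsb, Ivd and Acad8 lay between -0.02 and 0.14, none called by edgeR, DESeq2 or limma-voom or at an unadjusted p-value below 0.05. Per 3000 sorted cells all 3 were called, beside 71.5% of all tested genes. Of 2 further tested genes of the carnitine shuttle, Cpt1c, a brain-enriched relative of Cpt1a, was higher (1.23, adjusted p = 0.0135) and Slc25a20, the carnitine-acylcarnitine translocase, was at -0.12 (adjusted p = 0.789). Peroxisomal oxidation had 2 genes lower, Amacr (-1.89) and Pecr (-1.89), and 2 higher, Abcd3 (1.18) and Acaa1a (0.97), of 10 tested.

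Upstream of the mitochondrion, more genes of uptake and of lipid droplets rose than fell, beside 24.6% of all tested genes higher and 24.1% lower. Per 3000 sorted cells, the other fatty acid genes together numbered 45 lower and 5 higher of those tested, beside 66.6% and 4.9% of all tested genes in that fit. Of 11 tested genes of uptake and activation, 5 rose and 2 fell. Cd36, a fatty acid transporter, went from 12.8 ± 7.87 to 201 ± 99.98 normalized CPM (log2 fold change 3.87, adjusted p = 6.05e-05) and Fabp4, a fatty acid binding protein, from 42.9 ± 27.2 to 486 ± 295 (3.45, adjusted p = 0.000765). Lpl (1.46), Fabp5 (1.61) and Slc27a1 (1.56) rose as well, while the acyl-CoA synthetases Acsl4 and Acsl3 fell by 0.99 and 0.74 on the log2 scale. Endothelial cells, macrophages and adipocytes are known to express Cd36 and Fabp4. The study sorted YFP-positive cells, and its sort of MuSCs from uninjured muscle used antibodies to CD45, CD31 and Sca-1, against leukocytes, endothelium and other non-myogenic cells. Endothelial and leukocyte markers were higher in the same libraries as given above. Of the adipocyte markers, 2 were tested and 2 were higher, Fabp4 and Cebpa (1.33, edgeR, adjusted p = 0.000314). Adipoq had no count, and Plin1 and Cfd had 1 and 2 counts in all libraries together. The part of these cells in the genes of uptake, lipid droplets and lipolysis was not tested. All 8 tested genes of lipid droplets and lipolysis were called, 6 higher, among them Lipa (2.15), Mgll (1.93), Plin2 (1.23), Plin3 (1.01) and the triglyceride lipase Pnpla2 (0.69), and 2 lower, Hilpda (-0.87) and Abhd5, the activator of that lipase (-1.18). Of 11 tested genes of fatty acid synthesis, 5 were lower, including Tecr (-1.07), Scd2 (-0.97), Acly (-0.51) and Hacd3 (-0.52), and 2 were higher, Scd1 (1.29) and Srebf1 (0.61).

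**Figure D5:**
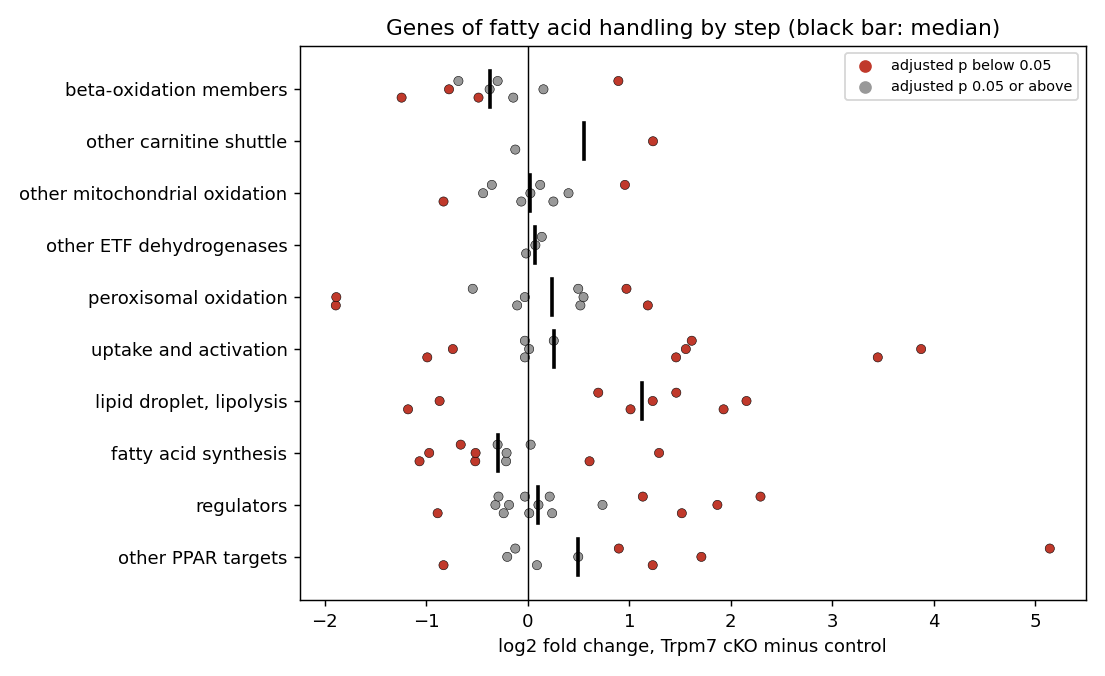
Log2 fold change, Trpm7 cKO minus control (horizontal axis), of every tested gene of the beta-oxidation members and of 9 further lists of fatty acid handling (rows); red points passed an adjusted p-value of 0.05 and black bars are medians. The members have a median of -0.38, fatty acid synthesis -0.30 and lipid droplets and lipolysis 1.12.

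Among the regulators of fatty acid oxidation, 15 of 27 were tested. Ppara, Pparg, Ppargc1a and Esrra had 6, 41, 78 and 53 counts in all 10 libraries together and were not tested, with Ppara at most 1 count in a library. Ppard, the PPAR that is widely expressed in muscle, went from 7.03 ± 2.82 to 39.9 ± 21.9 normalized CPM (log2 fold change 2.29, edgeR adjusted p = 3.11e-05) with no overlap between genotypes. Its counts were low, at 4, 8, 9, 4 and 8 in control and 13, 18, 11, 15 and 14 in Trpm7 cKO libraries. The highest value, 77.3 normalized CPM, was in Trpm7 cKO replicate 5, the shallowest library. Of 15 tested regulators, 4 were higher, the others being Foxo1 (1.52), Prkag2 (1.87), a regulatory subunit of AMP-activated kinase, and Ncoa1 (1.13), and 1 was lower, the coactivator Ppargc1b (-0.89). The share called was 33.3%, beside 48.7% of all tested genes, of which 24.6% were higher and 24.1% lower. Among 9 tested genes listed as further PPAR targets, 4 were higher and 1 lower (Hadh), or 55.6% called. Txnip rose from 36.8 ± 10.2 to 1302 ± 466 normalized CPM (5.14, adjusted p = 1.03e-08), Vldlr by 1.71, Plin2 by 1.23 and Ucp2 by 0.90 on the log2 scale, whereas Pdk4, which restrains pyruvate oxidation, was at 0.09 (adjusted p = 0.769). The part of leukocytes and other cell types in the results for the regulators and the further PPAR targets was not tested.

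Promoter letters were searched on both strands from 250 bases before to 50 after each RefSeq start, as a description of the members. Of 9 members with a promoter in the table, 6 held a GC box (GGGCGG), beside 35.7% of 32851 promoters, and 3 held a CCAAT box (CCAAT; Cpt1a, Etfa and Etfb), beside 37.4%. The windows of Hadha and Hadhb overlap, and the only GC box of Hadha is also a GC box of Hadhb, counted for each. The nuclear receptor half-site (AGGTCA) was found for Cpt1a, Acadm and Acadvl, beside 16.3% of promoters, and the core of the NRF1 site (CGCATGCG) for Acadm, beside 1.87%. No member held 2 half-sites in the same direction with 1 base between (DR1, 0.0396% of promoters), the longer site of the ERR receptors (TCAAGGTCA, which contains the half-site; 0.423%), the CRE (TGACGTCA; 1.79%) or the E-box (CACGTG; 7.15%). Of the members called lower, Acadl and Hadhb held GC boxes and Etfa held CCAAT boxes, and Etfb, which was called higher, held both. The absence of these letters from the window says nothing about binding of the factors elsewhere.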

How the data were processed

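The authors extracted barcodes and UMIs with UMI-tools 1.1.4, trimmed reads with Trim Galore 0.6.10, aligned them to GRCm38 with HISAT2 2.2.1, counted them per gene with featureCounts 2.0.6 and removed UMI duplicates. The deposited values are whole-number counts per gene and were not normalized. Which annotation release and strand setting were used is not given in the sources used here. Genotype and replicate came from the sample labels. The table has 24620 entries, and of 12 repeated symbols the entry with the larger total was kept, leaving 24608. Genes were kept by filterByExpr (minimum count 10, minimum total 15) and compared with edgeR 4.0.16 in R 4.3.3 by its quasi-likelihood test (robust fit, TMM scaling) with Benjamini-Hochberg adjustment over 7753 genes. Fold changes are log2, Trpm7 cKO minus control, ± SE. Ratios used a pseudocount of 0.5 per count and exact permutation of the genotype labels, two-sided, whose smallest p is 0.00794. Likeness used log2 CPM with a prior count of 2. The labels do not say that the libraries of a genotype come from separate mice, so that p-values measure the spread between these libraries. Counting error limits genes of few counts, in the smallest library (205980 counts) most of all.

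The members and all gene lists were chosen with earlier results of these data known. Named were Trpm7, the members, the up to 6 tested genes of each further list with the highest mean CPM, 5 regulators, Ptprc, Adgre1, Pax7 and Myod1, and the 5 genes most like the members. Ptprc and Adgre1, which mark leukocytes and macrophages, went from 8.00 to 56.7 and from 4.85 to 52.8 normalized CPM. Fabp5, Slc27a1, Abhd5, G0s2, Acaa1a, Etfdh, Srebf1, Prkag2, Ppargc1b and the markers of other cells were named after their values were seen. Alternatives were DESeq2 1.42.0, limma-voom (limma 3.58.1), other scalings and filters, thinning, a replicate block, a leukocyte covariate, other pseudocounts and each library left out. The test was checked on simulated counts. Transcript ends and overlaps came from the GENCODE annotation of GRCm38, promoters from RefSeq.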

Additional observations from a re-analysis of the deposited data

Results flagged for a closer look

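Of 130 groups of 5 libraries tested for a single library far from the other 4, 3 held one, and chance alone marks about 1 in 20 such groups. The log2 ratio of Cpt1a to Cpt2 was 0.99 in control replicate 4, against 1.48 to 1.59 in the other control libraries. Slc25a20, the carnitine-acylcarnitine translocase between CPT1 and CPT2, was at 36.5 normalized CPM in Trpm7 cKO replicate 4, against 10.96 to 12.9 in the other Trpm7 cKO libraries. Myod1 was at 551 normalized CPM in control replicate 2, against 764 to 827 in the other control libraries.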

How the results depend on the processing

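Hadhb and Acadl kept their direction in all 22 alternative fits and their call in 21, all but that with the leukocyte score as a covariate. Under DESeq2, limma-voom, RLE factors and the replicate block no member count moved by over 1.5 times. Members lower and higher numbered 3 and 1 in the main analysis, 5 and 0 when scaled on MuSC identity genes, 8 and 0 per 3000 sorted cells and 0 and 0 with the leukocyte covariate. Without a filter, 5 were lower. Without Trpm7 cKO replicates 3 and 5 (chosen after seeing the data) and when thinned to 205980 counts, 0 were higher. When thinned, 6 members passed the filter and Etfb was not among them. Of all tested genes, 24.1% were lower and 24.6% higher in the main analysis. These shares were 34% and 13.9% on MuSC identity genes, 66.6% and 4.9% per 3000 sorted cells and 1.37% and 4.41% with the covariate. They were 12% and 13.1% without a filter, 19.4% and 21.5% without Trpm7 cKO replicates 3 and 5, and 22.4% and 23.5% when thinned. At a minimum count of 30 they were 27.6% and 28.6%. Other fatty acid genes numbered 13 lower and 24 higher, 20 lower on MuSC identity genes, 45 lower and 5 higher per 3000 cells, 7 and 13 at a minimum count of 30, 4 and 10 when thinned and 0 and 4 with the covariate.

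Per 3000 cells Cpt1a was at -1.29, Cpt2 at -1.82, Acadm at -1.02, Hadha at -1.55, Acaa2 at -1.48 and Etfb at -0.32. On MuSC identity genes Cpt2 was at -1.04, Acadm at -0.20, Hadha at -0.68 and Etfb at 0.58. Without a filter Cpt2 was at -0.88, Acadm at -0.05 and Hadha at -0.58. With the covariate Cpt1a was at -1.47, Acaa2 at -1.38, Hadha at -0.73, Cpt2 at 0.00, Acadm at -0.51, Acadl at -0.79, Hadhb at -0.30, Etfa at 0.06 and Etfb at 0.13. When thinned, Cpt1a was at 0.02 and Etfa at -0.26, and Etfa was at -0.38 with total counts alone, -0.37 at a minimum count of 30 and -0.29 without Trpm7 cKO replicates 3 and 5, where Etfb was at 0.63. The ratios of Hadha to Hadhb and Etfa to Etfb differed by 1.04 and -1.44 when thinned. The replicate numbers do not pair the libraries (correlations of same-numbered deviations from -0.12 to 0.18), and paired by number the ratios differed by 0.95 and -1.54 (sign-flip test, exact, adjusted p = 0.0938 each, where the smallest possible raw p is 0.0625). The cause of these shifts was not tested, except that thinning and a higher minimum leave fewer genes tested (3928 and 4357).

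Leaving out each library gave 2 to 3 members lower and 1 higher, beside 20.5% to 23.6% and 22.7% to 25.9% of all tested genes. Of the other fatty acid genes, 9 to 13 were lower and 21 to 25 higher. Ranges were -0.36 to -0.01 for Cpt1a, -0.78 to -0.53 for Cpt2, 0.07 to 0.29 for Acadm, -0.86 to -0.73 for Acadl, -0.50 to -0.27 for Hadha, -1.36 to -1.18 for Hadhb, -0.52 to -0.13 for Acaa2, -0.66 to -0.38 for Etfa, 0.72 to 1.06 for Etfb, 0.67 to 1.17 for Hadha to Hadhb, -1.90 to -1.16 for Etfa to Etfb, 0.24 to 0.75 for Cpt1a to Cpt2 and 0.86 to 1.14 for Acadm to Acadl. Pairs with Acadvl could not be run at 1 count.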
